A study of Mus musculus with 6 samples.

Results

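The proteasome genes are the 51 protein-coding mouse genes whose symbols start with Psma, Psmb, Psmc, Psmd, Psme, Psmf or Psmg, of 21883 protein-coding genes of the nuclear genome. No measured value entered the choice. Accessible chromatin was profiled by ATAC-seq, in which Tn5 transposase cuts open DNA and adds adapters, using CGR8 mouse embryonic stem cells, with 2 samples each named mito, LM and eG1-1 and 1 list of called peaks per sample. The series title speaks of mitotic exit, and the names are taken here for mitosis, late mitosis and early G1, although no label spells them out. The peak names of the LM lists read Telo. All 6 samples shared a defined medium, N2B27, the GSK3 inhibitor CHIR99021, the MEK inhibitor PD184352 and leukemia inhibitory factor, and were untreated. The series design calls the CGR8 cells Cdt1-MD, and how cells of each stage were obtained is not given beyond a protocol that names sorting or trypsinization. The titles give 10K cells per sample and the protocol 50000. Nothing says whether the 2 replicates came from separate cultures, so the spread between them may be technical.

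The proteasome is the large protease that degrades proteins tagged with ubiquitin. Its 20S core is a barrel of alpha and beta subunits, of which certain beta subunits carry the catalytic sites. The 19S cap, built from ATPase and non-ATPase subunits, recognizes, unfolds and feeds in substrates. During mitosis the proteasome removes cyclin B and securin after the anaphase-promoting complex has marked them with ubiquitin. Most subunits are made in every cell, while a few are restricted to immune cells, thymus or testis.

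A gene was called held by a list where a peak overlapped 1 kb either side of its annotated start or end in mm10, and its value is the highest score among those peaks. The score is the authors' own whole number for a peak and serves here to describe and rank peaks within a list. The lists held 20639 to 48396 peaks and no read counts, so their depth is unknown, and where a peak is missing the authors called none there. The replicate number stands for the sequencing run, which the peak names give. Of 10 marker genes of pluripotent stem cells, 9 had a peak at a gene end in at least 1 list, Zfp42 in all 6 lists and Esrrb in none. Of 9 markers of fibroblasts and other cell types, 4 had one, among them Col1a1 in all 6 lists and Thy1 in 5.

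Most proteasome genes had an open gene end at every stage. All 6 lists held 28 of the 51 genes (54.9%), against 27.8% of all protein-coding genes. At least 5 lists held 37 of them (72.5%), against 37.2% of all. No list held 4 of them (7.84%), against 38.6% of all. These 4 were Psma6, Psmf1, Psmb11 and Psme2b. Of the 31 constitutive subunits of the 20S core and the 19S cap, which leave out the testis subunit gene Psma8, all 6 lists held 18 and at least 5 lists held 24.

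**Figure D1:**
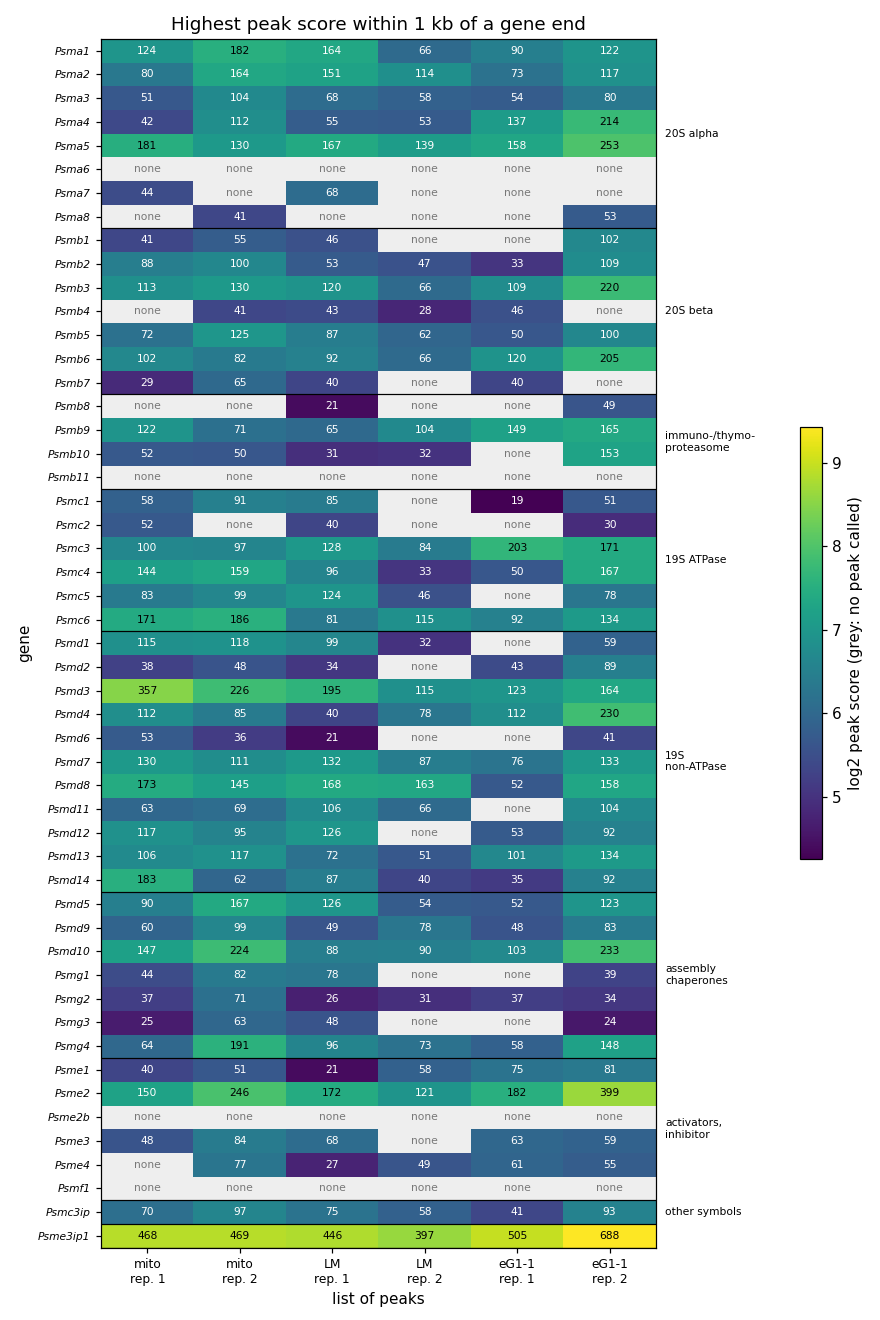
Highest peak score within 1 kb of a gene end for the 51 genes (rows, grouped by role) in the 6 lists (columns), with colour on a log2 scale and grey for no called peak. Grey cells gather in LM replicate 2 and eG1-1 replicate 1, and Psme3ip1 at the bottom has the highest score in every list, from 397 to 688.

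Among the alpha subunits, which form the outer rings of the 20S barrel and its gate, all 6 lists held 5 of 8 genes. Psma5 scored 181 and 130 at mito, 167 and 139 at LM, and 158 and 253 at eG1-1, the highest of the alpha genes by median position. Psma4 scored 42 and 112 at mito, 55 and 53 at LM, and 137 and 214 at eG1-1, so that both eG1-1 scores lay above the 4 others. Psma1, Psma2 and Psma3 scored between 51 and 182 in every list. Psma7 was held by the replicate 1 lists of mito (44) and LM (68) alone, with these scores at separate regions where both lists had a peak. Psma8, which replaces Psma7 in the testis form of the proteasome, was held by the replicate 2 lists of mito (41) and eG1-1 (53) alone. Each of these scores lay under the median over all genes held by its list, which was 78 to 98 in these 4 lists.

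Psma6 was held by no list at its annotated ends. RefSeq gives a second start 14603 bp inside the gene, at position 55398825 of chromosome 12. Within 1 kb of that start the peaks scored 77 and 108 at mito, 69 and 45 at LM, and 60 in eG1-1 replicate 2, with none in eG1-1 replicate 1. Psmf1, which encodes the proteasome inhibitor PI31, was like it. Around its start in the RefSeq promoter table, 2889 bp inside its annotated end at position 151741310 of chromosome 2, the peaks scored 60 and 58 at mito, 67 in LM replicate 1 and 37 in eG1-1 replicate 2, with none in the 2 other lists. Psma3 was held at its annotated ends and also had peaks in all 6 lists at a start 5340 bp inside the gene, with scores of 93 and 108 at mito, 88 and 44 at LM and 112 and 95 at eG1-1. With these starts included, the only proteasome genes without a peak in any list were Psmb11 and Psme2b. The interior starts were added after the values had been seen.

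Among the constitutive beta subunits, all 6 lists held Psmb2, Psmb3, Psmb5 and Psmb6, 4 of 7 genes. Psmb6 and Psmb5 encode catalytic subunits, the first with caspase-like and the other with chymotrypsin-like activity. Psmb6 scored 102 and 82 at mito, 92 and 66 at LM, and 120 and 205 at eG1-1, with both eG1-1 scores above the rest. Psmb5 scored 72 and 125 at mito, 87 and 62 at LM, and 50 and 100 at eG1-1, so the scores overlapped. By position within each list, given below, eG1-1 (16.8 and 24.7) lay below mito (24.9 and 46.3). Psmb7, the trypsin-like catalytic subunit, scored 29 and 65 at mito, 40 in LM replicate 1 and 40 in eG1-1 replicate 1, with none in the 2 other lists. Psmb1 scored 41 and 55 at mito, 46 in LM replicate 1 and 102 in eG1-1 replicate 2. Psmb4 scored 41 in mito replicate 2, 43 and 28 at LM, and 46 in eG1-1 replicate 1. For neither of them did a missing list fall on 1 stage.

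The immunoproteasome subunits Psmb8, Psmb9 and Psmb10 take the places of Psmb5, Psmb6 and Psmb7 in cells exposed to interferon, and Psmb11 takes that of Psmb5 in the thymus. Psmb9 was held by all 6 lists, with scores of 122 and 71 at mito, 65 and 104 at LM, and 149 and 165 at eG1-1. Its region, chr17:34187079-34187939, also comes within 1 kb of an annotated start or end of Tap1, a peptide transporter gene of the same immune cluster. The peaks there therefore cannot be given to 1 of the 2 genes. Psmb10 scored 52 and 50 at mito, 31 and 32 at LM, and 153 in eG1-1 replicate 2, with none in eG1-1 replicate 1. With a window of 2 kb all 6 lists held it, with 500 bp 2 did, by peak centre 3, and at the annotated start only 4. Psmb8 was held by LM replicate 1 (21) and eG1-1 replicate 2 (49) alone, at separate regions, and Psmb11 by none. The Psmb8 region of LM replicate 1 also comes within 1 kb of an annotated start or end of Tap1.

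The promoter windows of Psmb5 and Psmb6, and of Psmb8, Psmb9 and Psmb10, are printed as those of the catalytic subunits. No window was available for Psmb7. Each runs from 250 bases before to 50 bases after a RefSeq start (GRCm38.p6, the assembly of mm10), 5′ to 3′ in the direction of the gene. Capitals mark the letters of any of the 11 motifs described below. Peaks overlapped the Psmb5 window (chr14:54617946-54618245, minus strand), the Psmb6 window (chr11:70525107-70525406, plus strand) and the Psmb9 window (chr17:34187281-34187580, minus strand) in all 6 lists. No list had a peak over the Psmb8 window (chr17:34197945-34198244, plus strand) or the Psmb10 window (chr8:105938343-105938642, minus strand). The Psmb10 peaks lay inside the gene, with a median centre 1173 bp after the start, and the scores of 52 and 153 belong to peaks near its end.
Psmb5: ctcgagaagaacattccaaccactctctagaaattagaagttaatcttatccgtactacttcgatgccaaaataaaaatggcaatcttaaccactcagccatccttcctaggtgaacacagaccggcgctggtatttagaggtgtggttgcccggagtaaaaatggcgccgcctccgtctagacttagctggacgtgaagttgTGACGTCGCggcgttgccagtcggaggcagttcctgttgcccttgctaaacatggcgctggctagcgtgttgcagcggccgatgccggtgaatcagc
Psmb6: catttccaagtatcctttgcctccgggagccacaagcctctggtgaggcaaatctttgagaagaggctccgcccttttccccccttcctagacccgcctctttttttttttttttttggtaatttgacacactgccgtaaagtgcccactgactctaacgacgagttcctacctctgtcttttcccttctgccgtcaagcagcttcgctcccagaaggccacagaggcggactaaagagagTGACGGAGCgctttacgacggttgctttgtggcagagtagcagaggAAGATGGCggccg
Psmb8: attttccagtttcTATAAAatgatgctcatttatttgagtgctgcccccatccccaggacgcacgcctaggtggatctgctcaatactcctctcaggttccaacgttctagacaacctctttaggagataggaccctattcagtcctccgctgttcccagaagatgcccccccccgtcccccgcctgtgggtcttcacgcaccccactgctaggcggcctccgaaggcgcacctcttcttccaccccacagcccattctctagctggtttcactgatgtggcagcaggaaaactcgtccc
Psmb9: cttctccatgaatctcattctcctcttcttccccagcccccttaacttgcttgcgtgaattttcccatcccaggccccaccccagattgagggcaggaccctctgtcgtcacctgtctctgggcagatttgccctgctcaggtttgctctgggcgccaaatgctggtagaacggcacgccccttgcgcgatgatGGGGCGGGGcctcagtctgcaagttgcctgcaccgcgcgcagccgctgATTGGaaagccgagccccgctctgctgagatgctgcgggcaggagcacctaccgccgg
Psmb10: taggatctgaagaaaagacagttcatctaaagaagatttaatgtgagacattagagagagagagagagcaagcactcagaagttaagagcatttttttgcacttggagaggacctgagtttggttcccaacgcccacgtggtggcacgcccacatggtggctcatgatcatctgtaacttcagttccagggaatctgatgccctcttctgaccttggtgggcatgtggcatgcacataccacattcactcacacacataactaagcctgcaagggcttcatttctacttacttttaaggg
The Psmb5 and Psmb6 windows each hold 1 antioxidant response element core, TGACGTCGC and TGACGGAGC, which begin 47 and 9 bases before the start. This element is bound by Nfe2l1, known to raise proteasome genes when the proteasome is inhibited, and by its relative Nfe2l2, known for the response to oxidative stress. The 3 immune windows printed hold none. These 3 were also poorer in CpG than the 2 others, with ratios of observed to expected CpG of 0.523 (Psmb8), 0.600 (Psmb9) and 0.192 (Psmb10), against 0.999 for Psmb5 and 0.727 for Psmb6.

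Of the 6 ATPases of the 19S cap, which unfold substrates, all 6 lists held Psmc3, Psmc4 and Psmc6. Psmc3 scored 100 and 97 at mito, 128 and 84 at LM, and 203 and 171 at eG1-1. By position within each list, given below, eG1-1 lay above mito and overlapped LM. Psmc6 scored 171 and 186 at mito, 81 and 115 at LM, and 92 and 134 at eG1-1, where the mito scores were the highest. Psmc4 scored 144 and 159 at mito, 96 and 33 at LM, and 50 and 167 at eG1-1. Psmc5 lacked a peak in eG1-1 replicate 1 alone and scored 46 to 124 in the 5 other lists. Psmc1 lacked one in LM replicate 2 alone, and its scores ran from 19 in eG1-1 replicate 1 to 91 in mito replicate 2. Psmc2 was held by 1 list of each group, with 52 at mito, 40 at LM and 30 at eG1-1. At its second RefSeq start, 1472 bp inside the gene, mito replicate 2 (26) and eG1-1 replicate 2 (68) had a peak.

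Of the 11 non-ATPase subunits, all 6 lists held 6. Psmd3, a structural subunit of the lid, scored 357 and 226 at mito, 195 and 115 at LM, and 123 and 164 at eG1-1, and was the highest of the cap genes by median position. Psmd8, also of the lid, scored 173 and 145 at mito, 168 and 163 at LM, and 52 and 158 at eG1-1. Psmd4, a ubiquitin receptor, scored 112 and 85 at mito, 40 and 78 at LM, and 112 and 230 at eG1-1. Psmd14, the deubiquitinase of the lid, scored 183 and 62 at mito, 87 and 40 at LM, and 35 and 92 at eG1-1, so that the 2 mito replicates differed more from each other than the group means did. Psmd7, its partner, scored 76 to 133, and Psmd13 51 to 134.

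The 5 others of the non-ATPase group each lacked a peak in 1 or 2 lists, and those lists were LM replicate 2, eG1-1 replicate 1 or both. Psmd1, the largest subunit of the base, scored 115 and 118 at mito, 99 and 32 at LM, and 59 in eG1-1 replicate 2. Psmd11 scored 63 and 69 at mito, 106 and 66 at LM, and 104 in eG1-1 replicate 2. Both lacked a peak in eG1-1 replicate 1. Psmd12 scored 117 and 95 at mito, 126 in LM replicate 1, and 53 and 92 at eG1-1. Psmd2 scored 38 and 48 at mito, 34 in LM replicate 1, and 43 and 89 at eG1-1. Psmd6 had low scores throughout, 53 and 36 at mito, 21 in LM replicate 1 and 41 in eG1-1 replicate 2.

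The assembly chaperones are proteins that help to build the core (Psmg1 to Psmg4) or the base of the cap (Psmd5, Psmd9, Psmd10). All 6 lists held 5 of these 7 genes. Psmd10, also called gankyrin, scored 147 and 224 at mito, 88 and 90 at LM, and 103 and 233 at eG1-1. Psmd5 scored 90 and 167 at mito, 126 and 54 at LM, and 52 and 123 at eG1-1. Psmd9 scored 48 to 99, and Psmg4 58 to 191. Psmg2 was held by all 6 lists at low scores, 37 and 71 at mito, 26 and 31 at LM, and 37 and 34 at eG1-1, the lowest of the 28 genes by median position. Psmg1 (44 and 82 at mito, 78 at LM, 39 at eG1-1) and Psmg3 (25 and 63 at mito, 48 at LM, 24 at eG1-1) both lacked a peak in LM replicate 2 and eG1-1 replicate 1.

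Among the activators, Psme1 and Psme2 encode the 2 subunits of PA28, an interferon-inducible cap of the core. Psme2 scored 150 and 246 at mito, 172 and 121 at LM, and 182 and 399 at eG1-1. Its region also comes within 1 kb of an annotated start or end of Rnf31. Psme1, on the same chromosome, scored 40 and 51 at mito, 21 and 58 at LM, and 75 and 81 at eG1-1. By position within each list, as defined below, it stood at 4.84 and 3.58, 0.296 and 31.0, and 35.7 and 15.8 in the same order, so that eG1-1 lay above mito and overlapped LM. Psme3, the nuclear form of PA28, scored 48 and 84 at mito, 68 in LM replicate 1, and 63 and 59 at eG1-1. Psme4, the activator PA200, scored 77 in mito replicate 2, 27 and 49 at LM, and 61 and 55 at eG1-1. Psme2b had no peak in any list. It is a near copy of Psme2, and how the authors treated reads that map to both genes is not given, so the missing peak is uncertain.

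The symbol rule also took in Psmc3ip and Psme3ip1, which are not proteasome subunits. Psmc3ip encodes a factor of meiotic recombination and scored 41 to 97. Psme3ip1 encodes a protein that binds Psme3, and it had the highest scores of the 51 genes, with 468 and 469 at mito, 446 and 397 at LM, and 505 and 688 at eG1-1. Its score stood above those of 99.3% or more of the 6078 genes held by all 6 lists in every list. Its region also comes within 1 kb of an annotated start or end of both Rspry1 and LOC115486880.

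The share of proteasome genes held differed more between the 2 lists of LM, and between those of eG1-1, than between stages. It was 84.3% and 86.3% at mito, 90.2% and 66.7% at LM, and 68.6% and 86.3% at eG1-1. The group values were 85.3% ± 1.39 at mito, 78.4% ± 16.6 at LM and 77.5% ± 12.5 at eG1-1 (SD, n = 2 each), so the groups differed by less than the LM or eG1-1 replicates did. This did not hold for mito and eG1-1 at equal list length, described below. Over all protein-coding genes they were 48.5% ± 2.74, 41.6% ± 8.27 and 47.4% ± 7.50. Within the first sequencing run LM was highest and eG1-1 lowest, and within the other run LM was lowest and mito and eG1-1 stood level. The 2 low lists were LM replicate 2 and eG1-1 replicate 1, which also held the smallest shares of all genes, 35.7% and 42.1%. Without these 2 lists, 40 of the 51 genes were held by all lists left, against 37.5% of all genes.

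**Figure D2:**
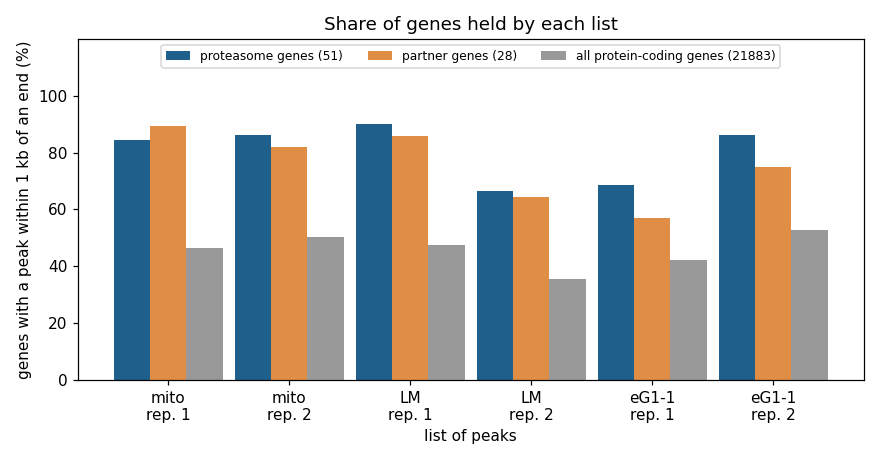
Share of genes with a peak within 1 kb of an annotated end (y axis, percent) in each of the 6 lists (x axis), for 51 proteasome genes, 28 partner genes and 21883 protein-coding genes. The proteasome bars stand at 66.7% in LM replicate 2 and 68.6% in eG1-1 replicate 1 and at 84.3% to 90.2% in the 4 other lists, and all genes are lowest in the same 2 lists.

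Most genes held by the low lists were also held by the fuller lists. All 34 genes of LM replicate 2 were also held by LM replicate 1, which held 12 more. All 35 genes of eG1-1 replicate 1 were also held by LM replicate 1 and by mito replicate 2, and 33 of them by eG1-1 replicate 2. Mito replicate 1 lacked 2 genes of each low list. LM replicate 1 held 46 of the 51 genes, and these overlaps were not counted over all protein-coding genes. Psmb1, Psmd6, Psmg1 and Psmg3 were held by the 4 other lists and by neither low list, which makes 7.84% of the proteasome genes and 2.56% of all. LM replicate 2 alone lacked Psmc1, Psmd2, Psmd12 and Psme3 (7.84%, against 4.98% of all genes). In the same way eG1-1 replicate 1 alone lacked Psmb10, Psmc5, Psmd1 and Psmd11 (7.84%, against 2.22%). Mito replicate 1 alone lacked Psme4 (1.96%, against 0.85%). The count of proteasome genes missing from 1 list alone was 0 for mito replicate 2 (against 0.32% of all genes), 0 for LM replicate 1 (against 0.804%) and 0 for eG1-1 replicate 2 (against 0.279%).

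No proteasome gene had a peak in both lists of 1 stage and in neither list of another. The count was 0 of 51 for mito and not eG1-1, against 1.97% of all genes, and 0 for the reverse, against 1.6%. For LM and not eG1-1 it was 0, against 0.48%, and for the reverse 0, against 2.35%. For mito and not LM it was 0, against 2.17%, and for the reverse 0, against 0.356%. Counts of 0 of 51 are near these shares. No test was made of these counts, and 2 lists against 2 could not go below an exact p of 0.333. With the 20639 strongest peaks of each list, 4 genes had peaks in both mito and in neither eG1-1 list (Psmc1, Psmd1, Psmg1 and Psmg2), where 5.36% of all genes were. At that length the shares of proteasome genes were 80.4% and 80.4% at mito, 80.4% and 66.7% at LM, and 60.8% and 64.7% at eG1-1, and those of all genes 43.6%, 40.3% and 35.1% by group mean. The mito and eG1-1 values for proteasome genes, 80.4% and 62.7% by group mean, then differed by more than the replicates of either did.

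The strength of the peaks was compared over the 6078 protein-coding genes held by all 6 lists, as the percentile of a gene's score among them within each list. The genes are the same in every list, so the length of a list does not set this position, and all of them together have a median near 50 by construction. The median of the 28 proteasome genes was 47.3 ± 4.90 at mito, 39.1 ± 3.03 at LM and 42.4 ± 2.19 at eG1-1 (SD, n = 2 each). The genes thus stood near or somewhat under the middle of such genes, far apart from one another. By median over the lists, Psme3ip1 (99.7), Psme2 (79.1), Psma5 (76.6) and Psmd3 (76.5) stood highest. Psmg2 (4.80), Psme1 (10.3), Psmd9 (16.6) and Psmd14 (17.2) stood lowest. Of these, Psmd14 stood at 80.7 in mito replicate 1 and at 6.36 to 35.1 in the other lists.

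Both eG1-1 positions lay above both mito positions in 6 of the 28 genes (21.4%), against 23.5% of the 6078 genes. They lay below in 9 (32.1%), against 24.2%. Neither share is far from that of all genes, so they are no result about the proteasome genes as a set. Psma4 moved most, from positions of 5.73 and 37.8 at mito and 13.1 and 26.0 at LM to 68.8 and 68.9 at eG1-1. Psmc3 stood at 44.8 and 27.7 at mito, 58.8 and 51.9 at LM, and 85.8 and 55.4 at eG1-1. Psmb6 had mean positions of 32.3 at mito and 64.1 at eG1-1, and Psmd4 of 36.4 and 65.4.

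In the other direction, Psmd3 stood at 98.4 and 86.1 at mito, 82.5 and 70.4 at LM, and 63.2 and 53.0 at eG1-1, in an order of stages that both runs show. Psmd8 had mean positions of 68.0 at mito, 80.4 at LM and 34.5 at eG1-1. Psmc6 had 76.5 at mito and 43.8 at eG1-1, Psmc4 67.0 and 35.4, Psma1 66.8 and 40.3, and Psmd5 53.5 and 27.1. Subunits of the core and of the cap occur on both sides. Between LM and eG1-1, 7 of the 28 genes stood higher in both LM lists (against 18.4% of all) and 6 higher in both eG1-1 lists (21.4%, against 18.7%). Between mito and LM, 6 stood higher in both mito lists (21.4%, against 16.9%) and 2 higher in both LM lists (7.14%, against 17.2%).

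**Figure D3:**
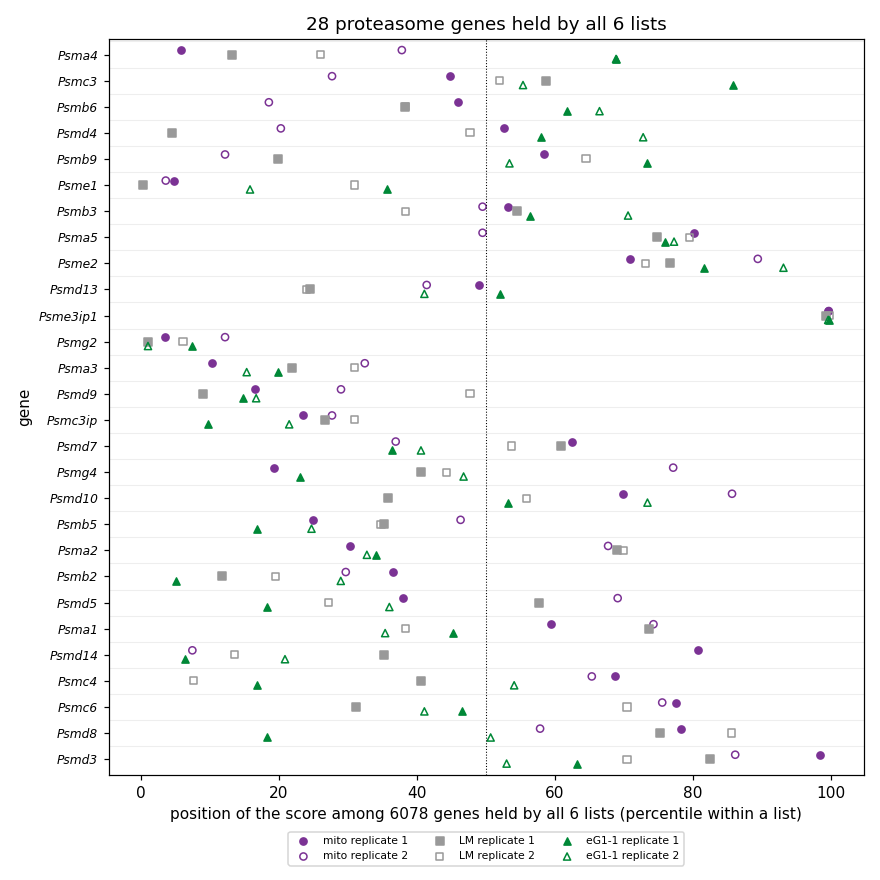
Position of the score of each of the 28 proteasome genes held by all 6 lists (y axis, ordered by the difference of the eG1-1 and mito means) as a percentile within a list among 6078 genes (x axis), with 1 point per list and a dotted line at 50. Psma4 at the top has both eG1-1 points near 69 and Psmd3 at the bottom both mito points above 86, while in 13 genes the mito and eG1-1 points overlap.

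Most peaks sat on the start of the gene. The promoter table gives the strand of 43 of the 51 genes, and 39 of these had a peak within 1 kb of their annotated start in at least 1 list. The share of these peaks that covered the start itself was 88.6% and 86.1% at mito, 82.1% and 86.2% at LM, and 86.2% and 73.0% at eG1-1. Over all genes it was 61.8% to 69.0%. Start peaks of proteasome genes had median widths of 726 and 747 bp at mito, 696 and 407 bp at LM, and 441 and 586 bp at eG1-1, so that LM replicate 2 and eG1-1 replicate 1 had the narrowest. All start peaks were narrowest in the same 2 lists, 400 and 431 bp, against 544 to 645 bp in the others. Peaks within 1 kb of the 3′ end and not of the start were found at 3 of the 43 genes. They were at Psma1 (19) and Psme3 (37) in eG1-1 replicate 2, and at Psmb10 in mito replicate 1 (52) and eG1-1 replicate 2 (153). In 17 of the 47 genes with a region, that region also came within 1 kb of an end of another protein-coding gene. Taken by their highest single score, which for each was that of eG1-1 replicate 2, the first 4 of these are Psme3ip1 beside Rspry1 and LOC115486880, Psme2 beside Rnf31, Psmb3 beside Pcgf2, and Psma4 beside Hykk and AY074887. By median position Psmd8, beside Catsperg1, stood above the last 2 of them, with 66.5 against 53.8 for Psmb3 and 31.9 for Psma4. Others of the 17 include Psma2 beside Mrpl32, Psmc5 beside Ftsj3, Psmd13 beside Sirt3, Psme1 beside Fitm1, Psmg1 beside Brwd1 and Psmg2 beside Cep76. Peaks in such shared regions cannot be given to 1 gene alone. The share of all protein-coding genes with such a neighbour was not computed.

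**Figure D4:**
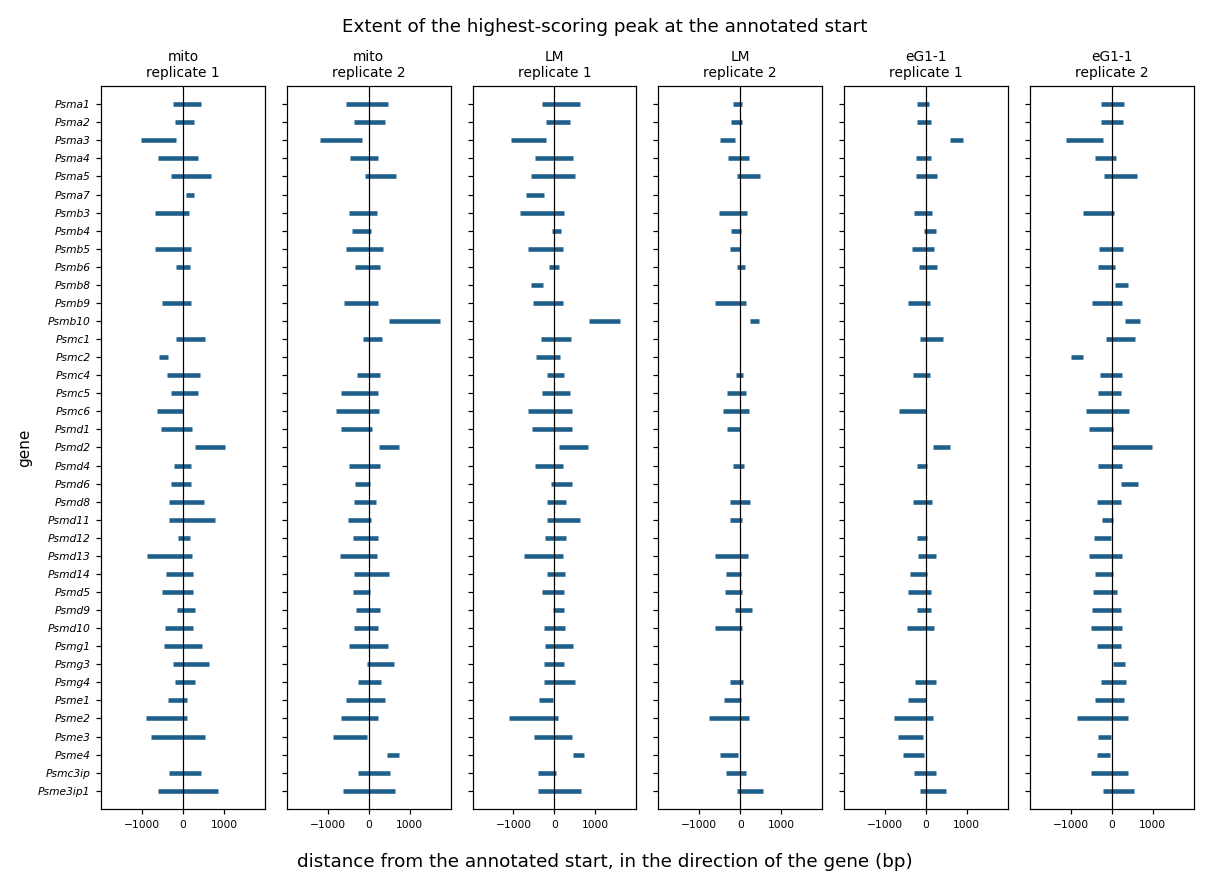
Extent of the highest-scoring peak within 1 kb of the annotated start (x axis, bp in the direction of the gene, with 0 at the start) for 39 proteasome genes with known strand (y axis) in each of the 6 lists (panels). Most bars cross 0, those of Psma3, Psma7, Psmb8, Psmb10, Psmd2 and Psme4 do not in any list, and bars in LM replicate 2 and eG1-1 replicate 1 are fewer and shorter.

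Promoter windows of 300 bases were available for the same 43 genes and for 17491 protein-coding genes in all. CpG-rich windows, taken as a ratio of observed to expected CpG of at least 0.6, made up 72.1% of the proteasome genes and 50.9% of all, with Psmb9 just under the threshold. This threshold was chosen after the values had been seen. Of the CpG-rich genes, all 6 lists held 16 of 31 proteasome genes (51.6%) and 45.4% of all such genes. Of the genes with poorer windows they held 7 of 12 proteasome genes, Psme2, Psmb9 and Psmd10 among them, and 1018 of 8596 genes in all.

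Both strands were searched for 11 motifs, counted once per gene over all of its windows. The ETS motif CCGGAAG was found in 16 of 43 proteasome genes (37.2%), against 12.9% of all genes and 22.1% of the 5053 genes with a window that all 6 lists held. Of these 16, all 6 lists held 5, against 49.4% of all genes with this motif. The interferon-stimulated response element motif was found in 5 (11.6%), against 3.94% of all genes, and these were Psmb3, Psmd4, Psmd9, Psme1 and Psmg4, each held by all 6 lists, as were 22.2% of all genes with this motif. The antioxidant response element core TGACNNNGC was found in 6 (14.0%, against 14.8%), namely Psmb5, Psmb6, Psmc6, Psmd9, Psmd12 and Psme4. CCAAT was found in 16 (37.2%, against 42.3%), the SP motif GGGGCGGGG in 6 (14.0%, against 17.3%) and TATAAA in 4 (9.30%, against 14.8%). AAGATGGC, the letters of YY1, was found in 3 (6.98%, against 3.57%), the NRF1 motif in 2 (4.65%, against 1.47%) and the ZBTB33 motif in 1 (2.33%, against 0.755%). TGACGTCA, the CRE, and the heat shock motif were found in 0, against 2.54% and 0.595%. A match is no proof of binding, and no test was made of these shares.

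**Figure D5:**
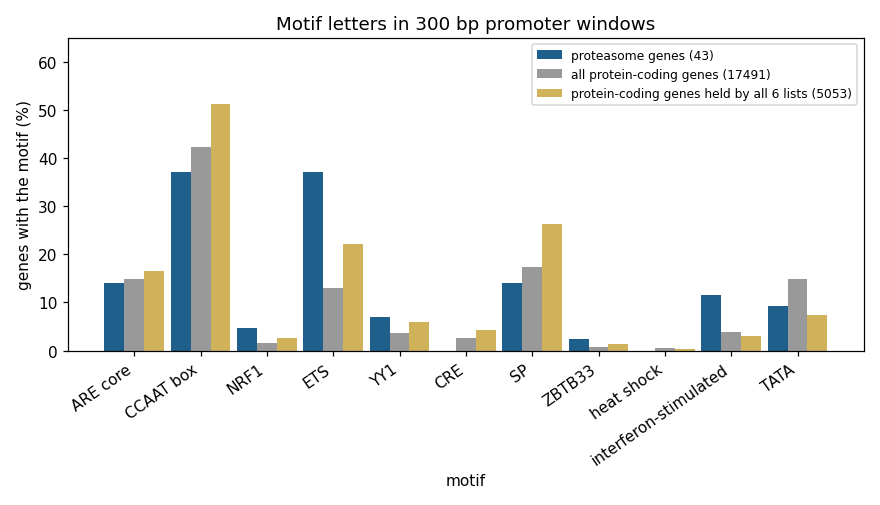
Share of genes (y axis, percent) whose 300-base promoter windows hold each of 11 motifs (x axis), for 43 proteasome genes, 17491 protein-coding genes and the 5053 of these held by all 6 lists. The ETS bar stands at 37.2% for proteasome genes against 12.9% and 22.1%, and the bars for the antioxidant response element (ARE) core lie between 14.0% and 16.4%.

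The windows of 4 further genes show these motifs beside open and missing peaks. Psma6 is given at its interior start (chr12:55398575-55398874, plus strand), where 5 lists had a peak over the window. It holds 3 ETS motifs, the nearest 2 bases before the start. Psmg1 (chr16:95990911-95991210, minus strand), with an ETS and an NRF1 motif, had a peak over the window in 4 lists. Psmd12 (chr11:107479278-107479577, plus strand), with an ETS motif and an antioxidant response element core, had one in 5. Psma4 (chr9:54950609-54950908, plus strand), with a pair of overlapping SP motifs, had one in all 6 and the highest scores in eG1-1.
Psma6: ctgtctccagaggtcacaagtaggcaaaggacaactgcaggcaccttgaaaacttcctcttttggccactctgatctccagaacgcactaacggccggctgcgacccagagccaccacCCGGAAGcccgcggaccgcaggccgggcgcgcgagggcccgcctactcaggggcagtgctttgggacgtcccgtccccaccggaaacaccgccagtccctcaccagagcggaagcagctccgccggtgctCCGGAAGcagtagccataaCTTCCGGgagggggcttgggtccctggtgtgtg
Psmg1: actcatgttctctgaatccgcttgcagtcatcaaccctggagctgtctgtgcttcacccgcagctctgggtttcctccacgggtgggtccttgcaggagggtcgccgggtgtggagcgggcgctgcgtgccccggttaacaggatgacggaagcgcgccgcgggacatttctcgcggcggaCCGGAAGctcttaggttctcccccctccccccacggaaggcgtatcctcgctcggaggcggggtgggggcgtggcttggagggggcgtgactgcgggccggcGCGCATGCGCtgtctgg
Psmd12: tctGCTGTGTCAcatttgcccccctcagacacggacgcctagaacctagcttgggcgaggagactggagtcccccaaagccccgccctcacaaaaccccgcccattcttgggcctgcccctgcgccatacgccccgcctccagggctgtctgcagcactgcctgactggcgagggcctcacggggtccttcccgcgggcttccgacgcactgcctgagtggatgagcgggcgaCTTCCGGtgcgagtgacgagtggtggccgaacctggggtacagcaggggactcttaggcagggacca
Psma4: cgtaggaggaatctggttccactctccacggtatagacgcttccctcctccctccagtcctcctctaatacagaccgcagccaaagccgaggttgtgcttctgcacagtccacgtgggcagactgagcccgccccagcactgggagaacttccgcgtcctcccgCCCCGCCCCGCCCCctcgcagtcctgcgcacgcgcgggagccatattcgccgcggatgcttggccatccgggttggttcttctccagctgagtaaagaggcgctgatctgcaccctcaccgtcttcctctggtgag

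Other genes of the pathway were followed as a list of 29 symbols, of which 28 were matched in the gene table and Paaf1 was not. All 6 lists held 14 of the 28, against 27.8% of all genes. They included Vcp, the ATPase that extracts ubiquitin-tagged proteins, with 265 and 279 at mito, 263 and 282 at LM, and 346 and 539 at eG1-1. Nfe2l1, the factor that raises proteasome genes, scored 205 and 233 at mito, 162 and 129 at LM, and 93 and 209 at eG1-1. At RefSeq starts 5841 to 6037 bp inside Nfe2l1, the peaks scored 166 and 187 at mito and 168 and 300 at eG1-1. Both LM scores there lay below these, and the scores did not fall from mito to eG1-1. Nfe2l2, a relative of Nfe2l1, scored 163 and 157 at mito, 174 and 122 at LM, and 76 and 250 at eG1-1.

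Of the 28 partner genes, 3 had peaks in both mito and in neither eG1-1 list, against 1.97% of all genes and 0 of the 51 proteasome genes. Among them, Usp14, a deubiquitinase of the cap, scored 103 and 104 at mito and 89 in LM replicate 1. Uba1, the main ubiquitin-activating enzyme, scored 19 and 43 at mito and 35 in LM replicate 1. At another RefSeq start of Uba1, 4594 bp inside the gene, eG1-1 replicate 2 did have a peak (34). None of the 3 had a peak in LM replicate 2, and the difference between partner and proteasome genes was not tested.

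The other partner genes not held by all lists fell into the pattern of the low lists or had few peaks. Adrm1, a ubiquitin receptor of the cap, Sem1, a small subunit of its lid, Ubb, a ubiquitin gene, and Ubqln1, a shuttle protein, lacked a peak in eG1-1 replicate 1 alone. Zfand5 lacked one in LM replicate 2 alone, and Ubqln2 in both. Pomp, the maturation factor of the core, scored 55 in mito replicate 1, 63 in LM replicate 1 and 14 in eG1-1 replicate 1. Ddi2, the protease that activates Nfe2l1, scored 31 in mito replicate 1 and 55 in eG1-1 replicate 2. Fbxo7 and Ecpas were held by none, but at a RefSeq start 1480 bp inside the gene Fbxo7 scored 88 and 42 at mito, 67 and 40 at LM and 36 in eG1-1 replicate 1. At a start 5818 bp inside the gene Ecpas scored 37 in mito replicate 1, 27 in LM replicate 1 and 42 in eG1-1 replicate 2.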

How the data were processed

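The 6 deposited files are lists of peaks with a score per peak, 1 list per sample. The score is a whole number made by the authors' peak caller, never under 13, whose scale is not given in the sources used here. Per the submitters' processing notes, the tools were MACS2 2.2.4, STAR 2.7.0e, deepTools 3.5.1, SAMtools 1.10, bedtools and Picard, and the builds mm10 and GRCm38. Each list has peak names of its own sample, so peaks were called per replicate. A shift for the Tn5 offset is not given.

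Genes came from the RefSeq table of GRCm38.p6 and promoter windows from RefSeq, read with Python 3.11.15, numpy 2.4.6 and pandas 2.3.3. An overlap of at least 1 bp counted. The overlap and ranking steps were tested on simulated data. No count model or p-value was used. The members and lists were chosen with earlier results of these data known. Named were all members not held by all 6 lists, the 4 highest and 4 lowest by median position, the 10 largest differences of position whose eG1-1 and mito values did not overlap, the catalytic genes and the partner genes not held by all 6 lists, with others as examples of their groups. Of the partner genes so chosen, 2 are counted but not reported by name here. Alternatives were other windows, a score of at least 50, equal list length, peak centres, starts only, interior starts and single lists left out.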

Additional observations from a re-analysis of the deposited data

How the results depend on the processing

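No paired analysis was possible because the counts, shares and medians come from no test to which the sequencing run could be added. The stages were set side by side within each run for the shares and for Psmd3 alone. The counts by position ignore the run. They leave out genes that moved the same way in both runs where the positions of the stages overlapped. Psmb9 rose from mito to eG1-1, from 58.4 to 73.3 in the first run and from 12.2 to 53.4 in the other. Psmd10 fell, from 69.9 to 53.2 and from 85.7 to 73.4. How many genes did so was not counted. The count of 28 genes held by all lists stayed within 1.5 times under each alternative run, from 19 at a score of at least 50 to 40 without LM replicate 2 and eG1-1 replicate 1. The share of all genes so held was 17.9% and 37.5% under these, against 27.8% in the main run. The share held in mito was 83.3% with a 500 bp window, 87.3% with 2 kb, 82.6% at annotated starts only, which was run on the 43 genes with a strand, and 90.2% with interior RefSeq starts. Over all genes tested it was 44.6%, 52.7%, 47.0% and 51.8% in the same order. At a score of at least 50 the mito share was 71.6%, the LM share 55.9% and the eG1-1 share 62.7%. Those of all genes were 38.4%, 29.9% and 35.6%. The median positions were then 41.2 in mito and 31.7 in eG1-1. At that score 1 gene was held in eG1-1 and not LM (Psme4, against 2.43% of all genes), 1 in mito and not LM (Psmb10, against 2.99%), 3 genes had both eG1-1 positions above mito, and 9 partner genes were held by all lists. At equal list length the shares were 80.4% in mito and 62.7% in eG1-1, the LM position was 36.1, and 4 genes were held in mito and not eG1-1 (against 5.36% of all genes), 1 in LM and not eG1-1 (2.69%) and 1 in LM and not mito (0.749%). At annotated starts only the median positions were 35.2 in LM and 44.8 in eG1-1, and with interior starts 45.0 in eG1-1.

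Without LM replicate 2 and eG1-1 replicate 1, an alternative chosen after seeing the data, as were the interior starts, and where 1 list stood for LM and 1 for eG1-1, 1 gene was held in mito and not eG1-1 (against 2.97% of all genes), 1 in the reverse (5.43%), 3 in LM and not eG1-1 (4.71%), 1 in the reverse (9.99%), and 1 in LM and not mito (2.29%). The median positions were then 46.2 in LM and 47.0 in eG1-1, and 11 genes had the eG1-1 position above mito. With 1 list left out at a time, the genes held by all lists left numbered 28 to 32. Those held in mito and not eG1-1 numbered 0 to 8, in eG1-1 and not mito 0 to 1, in LM and not eG1-1 0 to 4, in eG1-1 and not LM 0 to 4, in mito and not LM 0 to 9, and in LM and not mito 0 to 2. The 8 arose without eG1-1 replicate 2, where 7.88% of all genes were so held, and the 9 without LM replicate 1, where 11.3% were. The 4 in LM and not eG1-1 arose without eG1-1 replicate 2 (3.29% of all genes), and the 4 in the reverse without LM replicate 1 (8.83%). The 2 in LM and not mito arose without mito replicate 2 (1.63%). The 1 in eG1-1 and not mito arose without mito replicate 2 (4.23%) and without eG1-1 replicate 1 (5.43%). The shares ran from 84.3% to 86.3% in mito, 66.7% to 90.2% in LM and 68.6% to 86.3% in eG1-1. The median positions ran from 42.9 to 51.3 in mito, 38.4 to 42.4 in LM and 39.5 to 44.7 in eG1-1. Genes with eG1-1 positions above mito numbered 6 to 10, below mito 10 to 15, and partner genes held by all lists left 14 to 18. The share of all genes with such positions was not computed for any alternative. The counts by position, here and above, are thus no result about the proteasome genes as a set. The cause of these changes was not tested, other than that fewer lists make a call easier. The unknown depth limits every absent peak.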
